A study of Mus musculus with 18 samples.

Results

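The sites described here are 5-methylcytosine (m5C) sites called in bisulfite-treated RNA that lie on their own strand within no mm10 RefSeq gene span of any biotype. They number 2627 of the 25890 different sites listed in the 9 libraries and are called off-gene sites below. Of these, 755 lay within a RefSeq gene span on the other strand and are called antisense. The other 1872 lay within no gene span on either strand and are called intergenic. Their numbers, sequence contexts, clustering and scores were compared between the 3 groups. Of the sites within genes, 18342 lay in exons of protein-coding genes on their own strand (mRNA sites) and 4921 elsewhere within genes, such as introns, rRNA genes and other non-coding genes.

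The cells are labelled as cortical neurons of C57BL/6 mouse embryos at day 18. Control cells were untreated. The other groups had oxygen-glucose deprivation for 1.5 h or 3 h in glucose-free medium followed by 24 h of reoxygenation in normal medium, and are called OGD/R 1.5 h and OGD/R 3 h. Labels give the hypoxic gas as 94% N2, 21% O2 and 5% CO2, which sums to more than the whole. Each group had 3 libraries, labelled as replicates, of total RNA depleted of rRNA before bisulfite conversion. The read depth of the libraries and the coverage of the sites are unknown, because the site lists give neither. The study took a site as credible from a methylation level of 0.1 and a coverage depth of 10, and whether the deposited lists were filtered so is not known. Control listed 6021, 6254 and 5907 sites of all kinds in replicates 1 to 3. OGD/R 1.5 h listed 5423, 5745 and 5684. OGD/R 3 h listed 7772, 7266 and 7376, more than any library of the other groups. The series also holds mock-treated libraries, which have no site list of their own and were not analysed here.

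Treatment with bisulfite turns plain cytosine into uracil but spares m5C, so a cytosine still read as C after the treatment is called as m5C. A cytosine that escapes conversion, or a read placed at the wrong copy of a repeated sequence, gives the same signal. The sequence context of a cytosine is CG, CHG or CHH, where H is any base but G. Ribosomal RNA (rRNA), 7SK RNA and 7SL RNA are abundant non-coding RNAs whose sequence is found at many places in the genome.

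Sequences of 4 of the 5 antisense and of the 5 intergenic loci with most sites follow, 5′ to 3′ on the strand of the sites in mm10. A locus is a run of sites of the same class on the same strand whose neighbours lie at most 100 nt apart, and each line shows the stretch of at most 120 nt with most sites. Capital C marks a cytosine listed in at least 1 of the 9 libraries, and every other base is in lower case. The antisense stretches are chr17:39846733-39846852 (minus strand), chr11:109011657-109011776 (minus), chr10:105238406-105238525 (plus) and chr13:44869597-44869716 (minus). The intergenic stretches are chr17:39845314-39845433 (plus), chr10:11492091-11492210 (minus), chr1:167340403-167340517 (minus), chr1:56782067-56782186 (minus) and chr15:86194758-86194877 (plus). The last lines show chr13:44869671-44869731 (minus) and chr1:131573825-131573885 (plus), each centred on the site with the highest median score of its class.

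antisense 1: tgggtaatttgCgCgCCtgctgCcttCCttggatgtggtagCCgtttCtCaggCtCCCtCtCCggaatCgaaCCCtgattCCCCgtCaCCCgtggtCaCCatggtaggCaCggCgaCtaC
antisense 2: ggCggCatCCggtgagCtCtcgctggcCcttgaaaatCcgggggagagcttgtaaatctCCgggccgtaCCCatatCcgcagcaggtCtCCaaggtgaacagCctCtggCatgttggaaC
antisense 3: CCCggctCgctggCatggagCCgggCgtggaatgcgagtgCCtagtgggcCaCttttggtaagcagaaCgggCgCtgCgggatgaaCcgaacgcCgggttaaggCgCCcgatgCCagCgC
antisense 4: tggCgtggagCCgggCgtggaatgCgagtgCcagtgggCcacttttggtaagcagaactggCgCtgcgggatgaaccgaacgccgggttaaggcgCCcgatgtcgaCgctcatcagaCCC
intergenic 1: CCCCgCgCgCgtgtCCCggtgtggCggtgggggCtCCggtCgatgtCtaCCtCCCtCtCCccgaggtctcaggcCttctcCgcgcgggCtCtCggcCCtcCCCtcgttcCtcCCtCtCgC
intergenic 2: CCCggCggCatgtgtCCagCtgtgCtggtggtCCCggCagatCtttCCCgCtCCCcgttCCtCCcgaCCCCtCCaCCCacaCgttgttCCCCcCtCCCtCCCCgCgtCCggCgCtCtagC
intergenic 3: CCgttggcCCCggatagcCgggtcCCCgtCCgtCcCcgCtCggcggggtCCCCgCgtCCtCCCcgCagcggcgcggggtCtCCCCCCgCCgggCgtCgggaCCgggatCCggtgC
intergenic 4: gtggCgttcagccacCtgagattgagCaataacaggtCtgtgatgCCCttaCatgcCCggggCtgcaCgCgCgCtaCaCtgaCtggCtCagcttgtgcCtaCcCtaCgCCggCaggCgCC
intergenic 5: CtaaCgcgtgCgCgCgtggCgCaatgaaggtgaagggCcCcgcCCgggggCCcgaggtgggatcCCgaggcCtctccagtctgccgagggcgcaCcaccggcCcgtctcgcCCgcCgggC
antisense site of highest score: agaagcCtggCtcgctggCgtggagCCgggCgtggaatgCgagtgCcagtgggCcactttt
intergenic site of highest score: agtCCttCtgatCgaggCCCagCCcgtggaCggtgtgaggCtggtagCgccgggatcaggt

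Of the 120 bases of antisense 1, 40 were cytosines and 38 of them were listed. In intergenic 2, 54 of 58 cytosines were listed. In intergenic 5, 22 of 46 were listed, and in antisense 4, 15 of 32. Antisense 4 and the stretch around the highest antisense score overlap at the same locus.

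The labelled cell type was checked against lists of marker genes, each counted as having a site in an exon on its own strand. None of the 12 neuronal genes (Tubb3, Map2, Rbfox3, Snap25, Syt1, Gap43, Stmn2, Nefl, Nefm, Dcx, Mapt and Syn1) had a site in any library. Of 16 intestinal epithelial genes 15 had sites, all but Phgr1, with 121 sites in control, 64 in OGD/R 1.5 h and 174 in OGD/R 3 h. Apoa4 had the most, 54 sites. Of 6 erythroid genes, Hbb-bs had 25 sites and Hbb-bt 6, and Hba-a1, Hba-a2, Alas2 and Slc4a1 had none. Of 8 neutrophil and bone marrow genes, S100a8 had 9, S100a9 had 7 and Ngp had 5, and Camp, Ltf, Lcn2, Mpo and Elane had none. The erythroid and neutrophil sites were all from OGD/R 3 h. No gene of any of the 4 lists had a site on its other strand, so the antisense sites give no marker of cell type. These are bulk samples, in which fewer cells of a type and less RNA per cell cannot be told apart. A site list shows only RNA covered well enough to be called, so a missing gene was not shown to be unexpressed.

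The number of off-gene sites per library was 827, 755 and 772 in control, a mean of 785 ± 37.6 (SD, n = 3 libraries). It was 627, 766 and 631 in OGD/R 1.5 h (675 ± 79.1) and 702, 811 and 805 in OGD/R 3 h (773 ± 61.3). Replicate 2 of OGD/R 1.5 h lay among the control values, and all 3 groups overlapped. Against control, the log2 ratio of the means was -0.22 for OGD/R 1.5 h and -0.02 for OGD/R 3 h, with spreads between libraries of 0.18 and 0.14. Intergenic sites numbered 615, 611 and 596 in control. They numbered 501, 547 and 501 in OGD/R 1.5 h, each below each control library, and 580, 674 and 635 in OGD/R 3 h, which overlapped control. Antisense sites numbered 212, 144 and 176 in control, 126, 219 and 130 after OGD/R 1.5 h and 122, 137 and 170 in OGD/R 3 h, with overlap between all groups. The high value of OGD/R 1.5 h replicate 2 included 37 sites of a locus within Gm36876 that the other libraries of its group lacked.

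As a share of all sites, off-gene sites made up 13.7%, 12.1% and 13.1% in control and 11.6%, 13.3% and 11.1% in OGD/R 1.5 h. The share was 9.03%, 11.2% and 10.9% in OGD/R 3 h, below every control library. The difference from control was -0.960 percentage points (spread 1.45) for OGD/R 1.5 h and -2.59 (spread 1.43) for OGD/R 3 h. Without the rRNA unit copy described below, an alternative chosen after seeing the data, the latter was -1.14, less than the spread. The mean number of mRNA sites in OGD/R 3 h was 4984 ± 310, against 4014 ± 179 in control, so the lower share went with more sites within genes and a like number of off-gene sites. Antisense sites were 22.5% ± 3.29 of the off-gene sites in control, 23.1% ± 4.76 in OGD/R 1.5 h and 18.5% ± 2.31 in OGD/R 3 h. These shares overlapped between groups.

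**Figure D1:**
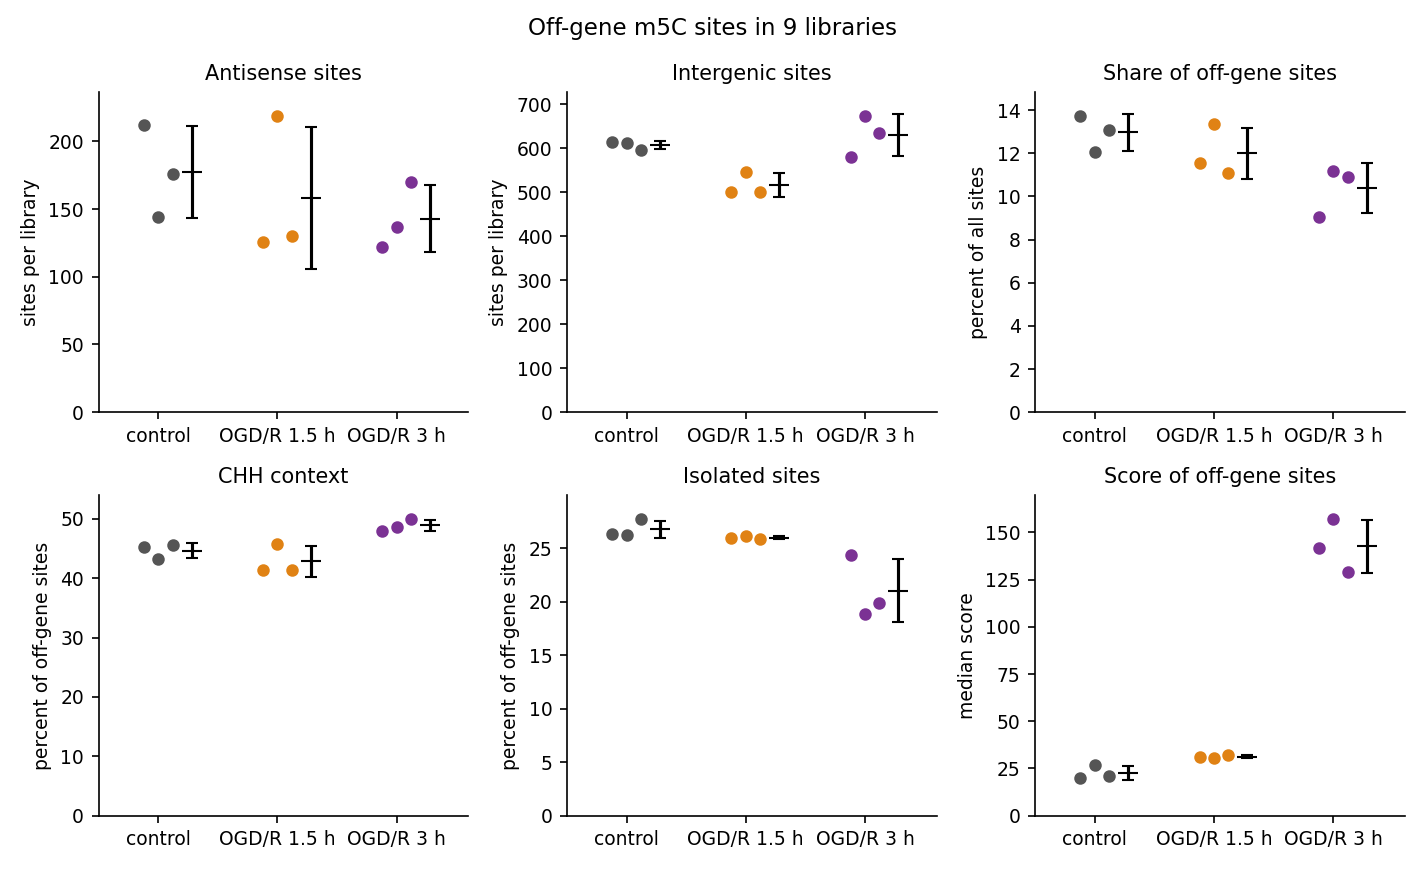
Antisense and intergenic sites per library, the share of off-gene sites among all sites, the share in CHH context, the share of isolated sites and the median score of off-gene sites. Each point is 1 library and the bar beside the points gives the mean and SD of the 3 libraries; the median scores of OGD/R 3 h, 129 to 157, lie above the 20 to 32 of the other libraries.

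Over the union of the libraries, 24.9% of off-gene sites were in CG context, 27.6% in CHG and 47.5% in CHH. Among mRNA sites the shares were 22.4%, 37.9% and 39.7%. Of the 12554 cytosines within 50 nt of off-gene sites on their strand, 17.2% were CG, 24.4% CHG and 58.4% CHH, so the sites held more CG and less CHH than the sequence around them. In CHH were 48.9% of antisense and 47.0% of intergenic sites, a union that hides opposite differences. The antisense share was below the intergenic share in each control library and above it in each library of both OGD/R groups. The base before the cytosine was C at 33.0% of off-gene sites and at 26.6% of mRNA sites.

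The CHH share of off-gene sites was 45.2%, 43.2% and 45.6% in control and 41.3%, 45.8% and 41.4% in OGD/R 1.5 h, which overlapped. In OGD/R 3 h it was 48.0%, 48.7% and 49.9%, above every other library. The difference from control was 4.22 percentage points (spread 1.63) for OGD/R 3 h and -1.84 (spread 2.90) for OGD/R 1.5 h. Without chromosomes 1, 10 and 11, an alternative chosen after seeing the data, the OGD/R 3 h difference was 0.922, less than the spread. It was 8.88 with GENCODE spans, and 7.33 without the rRNA unit copy, also chosen after seeing the data. Among antisense sites alone, CHH rose from 40.2% ± 3.67 in control to 55.8% ± 1.68 in OGD/R 3 h without overlap. After OGD/R 1.5 h it was 45.6% ± 3.22, which overlapped control. No alternative was run on antisense sites alone. Of the antisense sites listed in control, 95 (24.8%) were also listed in OGD/R 3 h, so these shares compare largely different sites. Among intergenic sites the shares were 45.9% ± 1.60, 42.0% ± 2.14 and 47.3% ± 1.18, and control overlapped OGD/R 3 h. Each OGD/R 1.5 h library (40.7%, 44.4% and 40.7%) lay below each control library, of which the lowest had 44.5%. Among mRNA sites CHH was also higher in OGD/R 3 h, 41.9% ± 1.02 against 33.2% ± 0.478 in control. It was 38.2% ± 1.18 after OGD/R 1.5 h, each library above every control library, where the off-gene mean was lower than control. The CG share of off-gene sites was below that of mRNA sites in each control library (24.5% against 27.8%, 26.5% against 26.9% and 25% against 27.2%) and above it in each OGD/R library. The mean difference was 2.36 points, less than its SD over the 9 libraries of 3.85, and it was -0.886 for sites in all 3 libraries of a group.

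Off-gene sites lay closer together than mRNA sites. A site with no other site of its library within 10 nt on its strand was counted as isolated. Isolated sites made up 26.4%, 26.2% and 27.7% of off-gene sites in control, 26.0%, 26.1% and 25.8% after OGD/R 1.5 h and 24.4%, 18.9% and 19.9% in OGD/R 3 h. The OGD/R 3 h shares lay below those of every other library, by -5.74 points against control (spread 3.04), and OGD/R 1.5 h differed from control by -0.789 (spread 0.839). Leaving out chromosomes 1, 10 and 11, also chosen after seeing the data, made the OGD/R 3 h difference -0.745, less than the spread. It was -14.0 for sites in all 3 libraries of a group and -9.87 for scores of at least 10. Without the rRNA unit copy, also chosen after seeing the data, it was -9.55. Among mRNA sites the isolated share was 53.2% ± 0.492, 60.1% ± 0.560 and 48.6% ± 0.671 in the 3 groups. The mean difference between off-gene and mRNA sites within a library was -29.4 points (SD 4.05, n = 9 libraries). In control, 24.4% ± 0.513 of off-gene sites had another site on the very next base, against 8.99% ± 0.789 of mRNA sites and 24.7% ± 1.63 of the other sites within genes. After OGD/R 1.5 h the other sites within genes were the more crowded, with a site within 3 nt for 47.2% ± 3.04 against 39.3% ± 1.96 of off-gene sites, without overlap. Antisense sites were less crowded than intergenic sites in every library, with isolated shares of 40.0% ± 9.32 and 23.2% ± 2.56 in control.

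The off-gene sites formed 366 loci, 134 antisense and 232 intergenic. Of these, 122 held 1 site, 205 held 2 to 9 and 39 held 10 or more. The 39 large loci together held 1718 sites, 65.4% of all off-gene sites. Within them a median of 58.0% of the cytosines on the strand were listed in some library, from 18.6% to 100%, and in 5 loci at least 90% were listed. Around mRNA sites, 10.5% of the cytosines within 50 nt were listed, against 21.3% around off-gene sites and 24.1% around the other sites within genes.

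**Figure D2:**
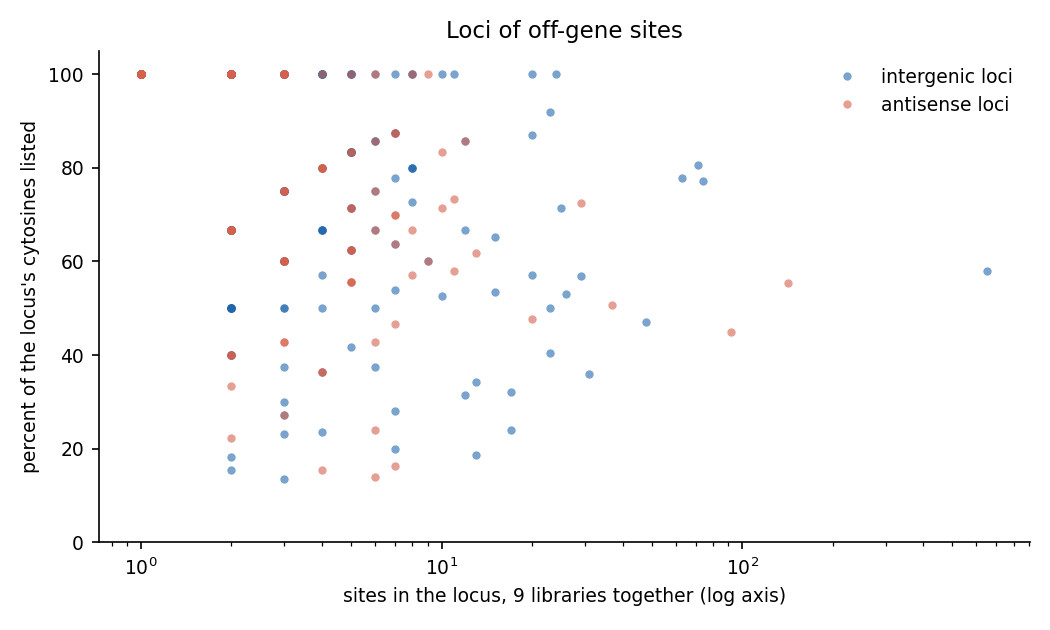
Loci of off-gene sites, with the number of sites in the 9 libraries together on a log axis and the percent of the locus's cytosines that were listed. Each point is a locus, intergenic in blue and antisense in red; the 39 loci with 10 or more sites run from 18.6% to 100%.

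The 3 largest loci, with 888 sites (33.8% of the off-gene sites), lay in a copy of the rRNA transcription unit on chromosome 17. RefSeq annotates its 18S part as the pseudogene Rn18s-rs5 (chr17:39846354-39848202, plus strand). The sequence 5′ of the 18S part has no RefSeq gene on the plus strand, and its 654 plus-strand sites were intergenic. They covered 57.2% of its 1143 cytosines, and the minus strand there had 0 sites. The 18S part had 273 sites on its own strand, which lie within a gene, and 146 on the other strand, of which 142 were off-gene. The unit's other off-gene sites are counted with it but are not described separately here. The unit held 39.4% ± 1.10 of the off-gene sites of a control library, 37.4% ± 4.30 in OGD/R 1.5 h and 33.2% ± 0.635 in OGD/R 3 h. The number of its off-gene sites was 309 ± 16.4, 250 ± 4.16 and 257 ± 21.7, and both OGD/R groups lay below control.

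**Figure D3:**
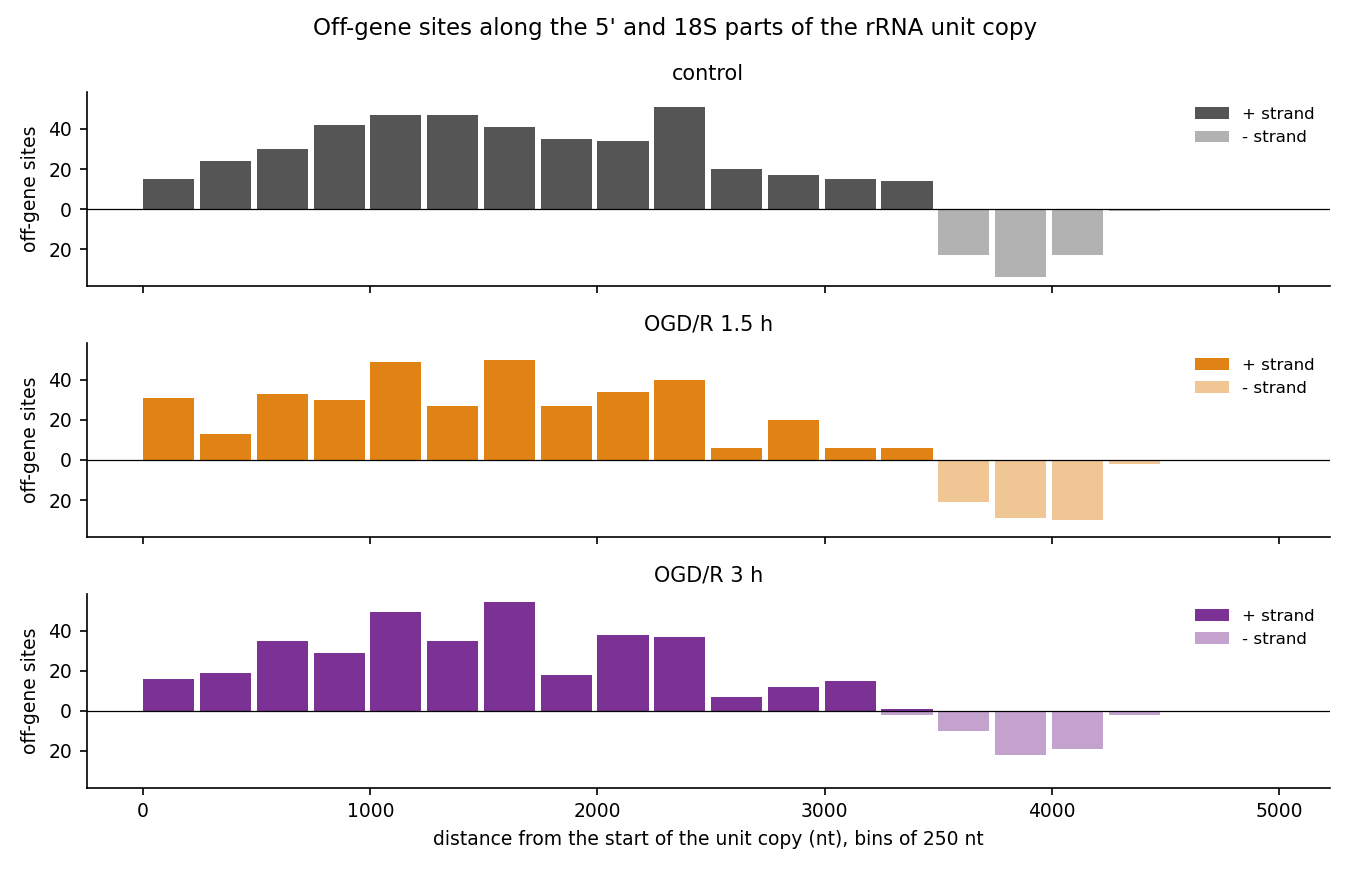
Off-gene sites along the 5′ and 18S parts of the rRNA unit copy on chromosome 17 in bins of 250 nt, from the start of the copy, for the union of the 3 libraries of each group. Plus-strand sites point up and minus-strand sites down; plus-strand sites of the 18S part lie within a gene and are not drawn, and minus-strand sites lie only against the 18S part.

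The authors' score runs from 0 to 1000 and takes in coverage and level together. In the 5′ part, at chr17:39843001-39846328, the median score was 28, 39.5 and 28 in control and 51.5, 78 and 75 in OGD/R 1.5 h. In OGD/R 3 h it was 409, 387 and 343.5. The 3 groups did not overlap, and their means were 31.8 ± 6.64, 68.2 ± 14.5 and 380 ± 33.3. On the other strand of the 18S part, at chr17:39846368-39847253, the median was 1000, the highest possible score, in all 9 libraries, with 44, 24 and 27 sites in control, 21, 43 and 36 after OGD/R 1.5 h and 21, 23 and 28 in OGD/R 3 h.

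Over all off-gene sites, the median score was 20, 27 and 21 in control, 31, 30.5 and 32 after OGD/R 1.5 h and 142, 157 and 129 in OGD/R 3 h. The groups did not overlap. On the log2 scale the mean medians differed from control by 0.46 (spread 0.23) for OGD/R 1.5 h and by 2.65 (spread 0.27) for OGD/R 3 h. Outside the rRNA unit the medians were 15, 16 and 16 in control and 16, 15 and 15 in OGD/R 1.5 h, which overlapped. Without the unit, an alternative chosen after seeing the data, the log2 difference of OGD/R 1.5 h became -0.031 and that of OGD/R 3 h became 1.52. Outside the unit, OGD/R 3 h had medians of 44.5, 55.5 and 35, above every other library. Intergenic medians were 22.3 ± 4.04, 30.3 ± 2.08 and 146 ± 15.1, and antisense medians 21.8 ± 6.64, 46.2 ± 22.1 and 122 ± 35.1. Sites at the highest score, 1000, made up 10.8% ± 0.616 of off-gene sites in control, 9.83% ± 2.56 in OGD/R 1.5 h and 20.6% ± 0.508 in OGD/R 3 h.

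In OGD/R 3 h the median score of mRNA sites moved less than that of off-gene sites, and in OGD/R 1.5 h it fell. The mRNA median was 9, 10 and 10 in control, 7 in each OGD/R 1.5 h library and 12, 13 and 11 in OGD/R 3 h. The share of mRNA sites with the score 1000 was 1.64% ± 0.107 in control, 1.66% ± 0.169 after OGD/R 1.5 h and 3.79% ± 0.219 after OGD/R 3 h. Of the other sites within genes, 20.1% ± 1.49 had the score 1000 in control, 30.8% ± 1.00 after OGD/R 1.5 h and 31.5% ± 0.814 after OGD/R 3 h. Within a library the off-gene median exceeded the mRNA median by 2.31 on the log2 scale (SD 1.03, n = 9 libraries), and by 1.24 without the rRNA unit, chosen after seeing the data. The excess differed between groups, with 1.22 ± 0.190, 2.15 ± 0.0352 and 3.57 ± 0.0217. Depth is unknown and the score takes in coverage, so a change in the amount of an RNA and a change in its level of methylation cannot be told apart.

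**Figure D4:**
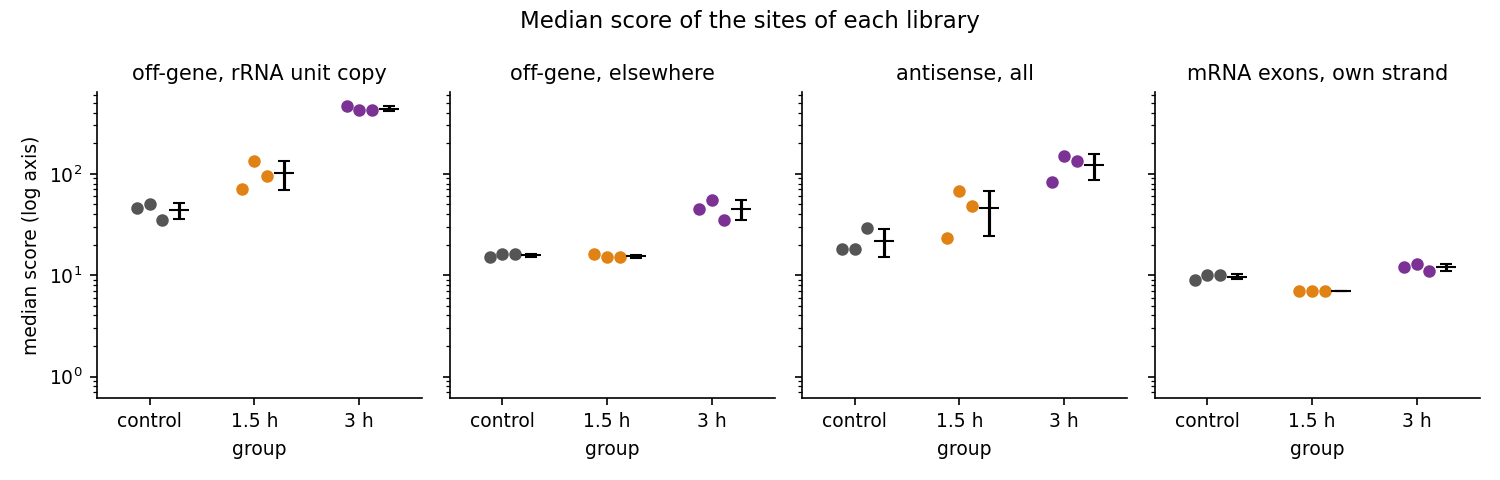
Median score per library, on a log axis, of off-gene sites in the rRNA unit copy, off-gene sites elsewhere, antisense sites and mRNA sites. Each point is 1 library and the bar beside the points gives the mean and SD of the 3 libraries; in the unit the medians run from 35 to 50 in control and from 423 to 467 in OGD/R 3 h, and mRNA medians from 7 to 13 in all libraries.

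The RefSeq spans used here leave out genes that GENCODE annotates. In all, 1330 off-gene sites (50.6%) lay within a GENCODE gene on their own strand, 310 of them antisense and 1020 intergenic, and 652 of these were in the 5′ part of the rRNA unit, where GENCODE has the lincRNA Gm26917. By sequence, 838 off-gene sites matched the rRNA unit on the same strand, 173 its other strand, 131 the mitochondrial genome, 49 7SK RNA and 48 7SL RNA. Of the rest, 284 lay within a GENCODE gene on their strand, 188 matched some other transcript and 916 matched none. The sites matching the rRNA unit include the 888 of the unit copy itself. Those matching the mitochondrial genome include the 39 off-gene sites on the mitochondrial chromosome. The rRNA unit copy searched lacks the 28S part, so sites in 28S-like sequence can be among those counted as matching none. Among the loci classed so were chr11:109011657-109011917, chr10:105238388-105238536, chr13:44869597-44869756 and chr15:86194758-86195097, described below. Whether these loci lie in 28S-like sequence was not tested. Sites matching the mitochondrial genome numbered 15.7 ± 3.51 per control library, 23.3 ± 3.21 in OGD/R 1.5 h and 47.3 ± 11.02 in OGD/R 3 h. Their median scores were 67.7 ± 41.3, 9.5 ± 2.18 and 17.2 ± 9.78, below control in OGD/R 1.5 h and overlapping it in OGD/R 3 h. Sites matching no transcript numbered 292 ± 23.8, 239 ± 63.6 and 256 ± 22.6, with median scores of 16.7 ± 2.31, 17.2 ± 2.47 and 41.2 ± 13.8. Those of sites matching some other transcript were 16.2 ± 2.36, 11.8 ± 3.33 and 49.3 ± 13.6. In both sets OGD/R 3 h lay above control without overlap. The 284 sites within a GENCODE gene had medians of 11, 4 and 9 in control and 17.5, 15 and 15.5 in OGD/R 1.5 h. In OGD/R 3 h they were 22, 20 and 12, and both OGD/R groups lay above control. Sites matching 7SL RNA had medians of 10, 9 and 10 in control and 6, 2.5 and 5 after OGD/R 1.5 h. After OGD/R 3 h they were 2, 3.5 and 4, from 3, 12 and 10 sites, so both OGD/R groups lay below control. At the largest 7SL-like locus, chr1:190482957-190483140, medians were 35, 7 and 9 in control and 12, 3 and 7 in OGD/R 1.5 h. In OGD/R 3 h they were 69, 28 and 83.5 there, from 1, 5 and 6 sites, and overlapped control. Of all off-gene sites, 41.2% had another copy of their sequence in the genome at 80% identity or more, against 11.6% of mRNA sites. Outside the rRNA unit copy the share of off-gene sites was 50.9%. A read of such a sequence may have come from another copy. Of the 366 loci, 43, with 545 sites, shared sequence with another locus.

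Among sites listed in all 6 libraries of control and OGD/R 1.5 h, 97 were off-gene. In 16 of them every OGD/R 1.5 h score was above every control score, and in 15 every score was below. Of all 689 sites listed in those libraries, 150 (21.77%) were higher and 62 (8.999%) lower. Of 295 mRNA sites 27 were higher and 40 lower, and of 297 other sites within genes 107 were higher and 7 lower. The 2 off-gene counts depended on the libraries used. The higher count was 29 without control replicate 1, 29 without control replicate 2, 27 without OGD/R 1.5 h replicate 1 and 26 without OGD/R 1.5 h replicate 3, and the lower count was 25 without OGD/R 1.5 h replicate 1, since fewer libraries overlap less often.

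Among sites listed in all 6 libraries of control and OGD/R 3 h, 85 were off-gene. Of these 45 (52.9%) were higher in OGD/R 3 h and 6 were lower, the latter count being 10 without OGD/R 3 h replicate 1. Of all 557 sites, 167 (29.98%) were higher and 48 (8.618%) lower, and of 253 mRNA sites 27 were higher and 39 lower. Of 219 other sites within genes, 95 (43.4%) were higher and 3 lower. The median change in log2(score + 1) was 1.50 for off-gene sites, 0.00 for mRNA sites and 0.92 for the other sites within genes. Of 36 off-gene sites in the rRNA unit 25 were higher and 1 lower, and of 49 elsewhere 20 were higher and 5 lower. Only 2 antisense sites could be compared for OGD/R 3 h, and their scores overlapped.

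Scores stop at 1000, so rises to that score are lower limits and their order is unknown. As listed, the largest rise in OGD/R 3 h was at chr17:39845404 (plus strand, CHH), in the 5′ part of the rRNA unit. Its scores were 86, 56 and 19 in control and 1000, 1000 and 948 in OGD/R 3 h, a log2 change of 4.41, and no OGD/R 1.5 h library listed it. Next came chr1:56782262 (minus strand, CG), with 26, 212 and 23 in control and 1000 in each OGD/R 3 h library, a change of 4.28. The largest fall was at chr1:131574016 (plus strand, CG), from 359, 777 and 486 in control to 130, 31 and 62 in OGD/R 3 h, a change of -3.004. OGD/R 1.5 h scored 850, 1000 and 574 there. At chr1:164826510 (plus strand, CHH) scores fell from 32, 16 and 31 to 1, 7 and 2, a change of -2.85.

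For OGD/R 1.5 h, the largest rise was at chr1:167340349 (minus strand, CG), from 3 in each control library to 57, 209 and 120, a log2 change of 4.83. OGD/R 3 h scored 10, 130 and 14 there, also above control. A neighbour at chr1:167340353 (CHH) rose from 3, 3 and 39 to 150, 152 and 44, a change of 3.56. The largest fall was at chr1:24613132 (minus strand, CHH), in sequence like the mitochondrial genome near mt-Tg. Its scores were 134, 110 and 401 in control and 20, 11 and 7 in OGD/R 1.5 h, a change of -3.85. The adjacent chr1:24613133 fell from 297, 110 and 149 to 22, 35 and 7, a change of -3.18. Both of these sites scored 1000 in each OGD/R 3 h library, above control, so the 2 OGD/R groups lay on opposite sides of control. Of 8 antisense sites compared for OGD/R 1.5 h, 1 rose and 3 fell without overlap. The rise was at chr11:6008812 (plus strand, CHG) within Camk2b, from 3, 3 and 0 to 16, 22 and 9, a change of 2.64. The larger falls were at chr10:111602626 within Gm30262, from 340, 22 and 80 to 15, 7 and 15 (-2.76), and at chr13:44869686 within Jarid2, from 394, 171 and 712 to 103, 81 and 96 (-1.96).

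Sites listed in all 9 libraries numbered 49, of which 48 were intergenic and 1 antisense, and 20 lay in the rRNA unit. Their median score was 266, 285 and 155 in control, 317, 297 and 243 after OGD/R 1.5 h and 853, 801 and 594 in OGD/R 3 h. OGD/R 3 h lay above the others, which overlapped. The 107 mRNA sites in all 9 libraries had medians of 761, 956 and 794, then 663, 692 and 604, then 944, 807 and 677, and control overlapped OGD/R 3 h. The antisense site was chr13:44869701 (minus strand, CG) within Jarid2, with a score of 1000 in 8 libraries and 997 in OGD/R 3 h replicate 1. The highest intergenic medians were at chr1:131573855, chr10:11491984 and chr17:39843493, each 1000. The lowest score of these 3 sites in any library was 633, at chr17:39843493 in control replicate 3.

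Outside the rRNA unit and the mitochondrial chromosome, the off-gene sites were spread unevenly over the chromosomes. Of 1700 such sites, 1306 (76.8%) lay on chromosomes 1, 10 and 11, which make up 16.4% of the genome's length. The share was 82.1% for antisense and 74.7% for intergenic sites. It was 23.2% for mRNA sites and 29.2% for sites in introns on their own strand. For sites that matched no transcript it was 89.3%, and for those that also had no other genomic copy 97.3% (617 of 634). For sites within any GENCODE gene on their strand it was 37.7% (169 of 448). The share was 81.3% in control, 80.5% in OGD/R 1.5 h and 77.9% in OGD/R 3 h, each for the union of the group's libraries. There were 3.57 off-gene sites per Mb on chromosome 1, 2.66 on chromosome 10 and 2.14 on chromosome 11, against 0.187 on chromosome 2 and 0.0326 on chromosome 19. These 3 chromosomes come first when names are sorted as text. Whether the deposited lists are complete for the other chromosomes is unknown, and the off-gene numbers given here rest on the lists as deposited. The cause was not tested.

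**Figure D5:**
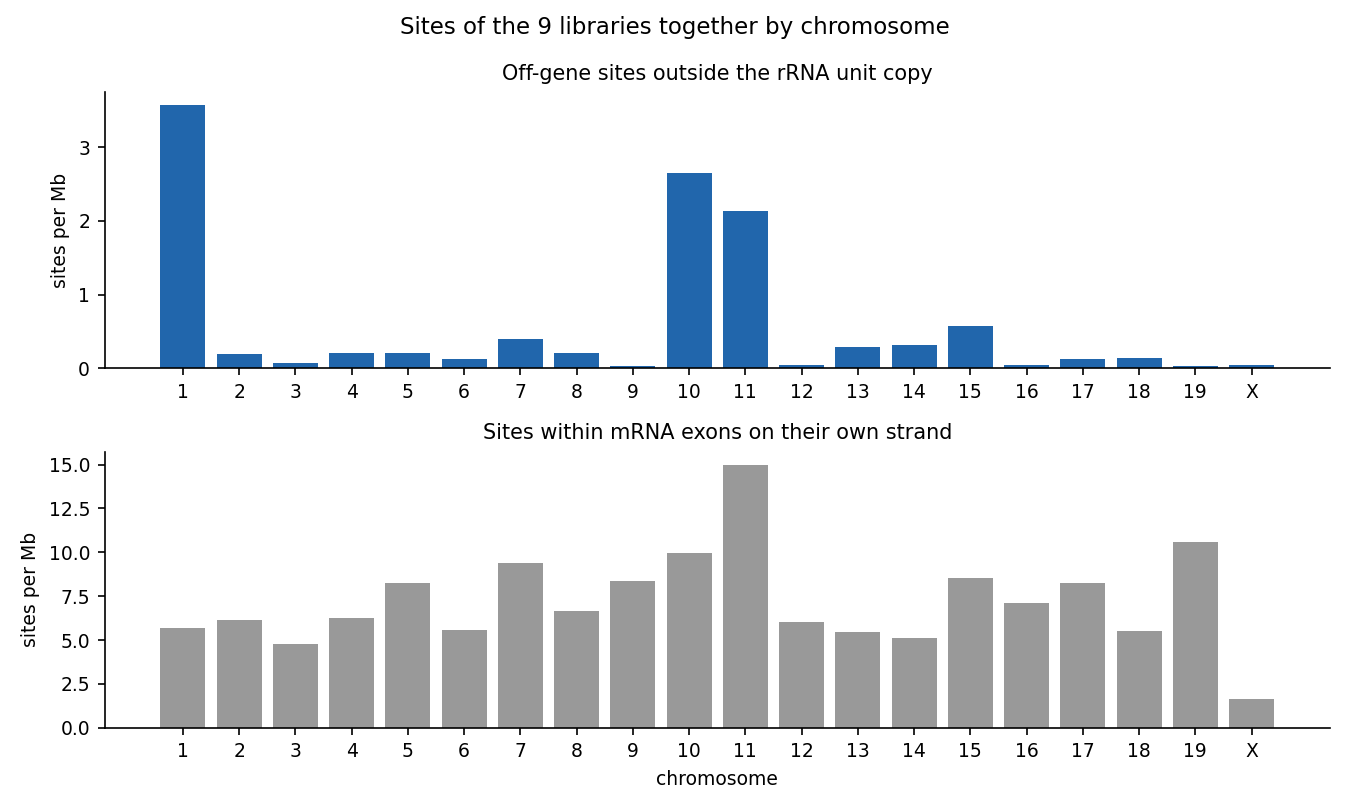
Sites per Mb by chromosome in the union of the 9 libraries, for off-gene sites outside the rRNA unit copy and for mRNA sites; the mitochondrial chromosome is left out. Off-gene sites reach 3.57, 2.66 and 2.14 per Mb on chromosomes 1, 10 and 11, and mRNA sites lie on all chromosomes drawn.

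Of the 755 antisense sites, 378 (50.1%) lay opposite an exon and 377 opposite an intron. With the rRNA unit and the mitochondrial chromosome left out, 496 remained in 107 host genes. Of these 496 sites, 24.0% lay opposite an exon, 86.1% had a protein-coding host and 3.63% had a site of the sense strand within 50 nt. Of the 5 genes with most antisense sites, 4 are described here. Rn18s-rs5, in the rRNA unit, had 142, Camk2b had 48, and Tmtc2 and Gm36876 had 37 each. Camk2b (chr11:5969629-6066357) had 36 antisense sites in control, 15 in OGD/R 1.5 h and 10 in OGD/R 3 h, in 7 loci, and 0 sites on its own strand. The Gm36876 sites (chr11:109011657-109011917, minus strand) were listed in OGD/R 1.5 h replicate 2, all 37, and in control replicate 1, which had 3 of them. No other library listed any.

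Within Tmtc2, the locus chr10:105238388-105238536 (plus strand, intron) held 29 sites. It had 7, 11 and 4 in control, 9, 8 and 8 after OGD/R 1.5 h and 0, 0 and 14 in OGD/R 3 h, where replicate 3 alone listed it. Its median scores stayed between 5.5 and 20. A second locus in the gene, chr10:105238221-105238255 (plus strand, 8 sites), named after its values were seen, had median scores of 10, 10 and 8.5 in control, 16, 9 and 63 after OGD/R 1.5 h and 641, 1000 and 1000 after OGD/R 3 h, from 1 to 4 sites per library. Within Jarid2, chr13:44869597-44869756 (minus strand, intron) held 20 sites, with 11, 6 and 8 in control, 9, 10 and 10 after OGD/R 1.5 h and 9, 10 and 9 in OGD/R 3 h. Its median scores were at least 961 in every library. The sequences of the first Tmtc2 locus and the Jarid2 locus were 95.8% identical over 212 nt, each had a median of 14 or 13.5 further copies per site in the genome, and their scores differed widely.

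Intergenic sites outside the rRNA unit numbered 1218, and their median distance to the nearest RefSeq gene on their strand was 24182.5 nt. Of these, 14.3% lay within 1000 nt of such a gene and 67.3% beyond 10000 nt. On chromosomes 1, 10 and 11 the median distance was 31514 nt and 14.9% lay within a GENCODE gene on their strand, against 7566 nt and 73.4% on the other chromosomes.

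The largest intergenic locus outside the unit was chr10:11491975-11492236 (minus strand), with 74 sites on 96 cytosines. It held 24, 33 and 34 sites in control, 26, 33 and 24 after OGD/R 1.5 h and 35, 39 and 37 in OGD/R 3 h. Its median score was 47, 60 and 45 in control, 478, 331 and 269 after OGD/R 1.5 h and 652, 544 and 439 in OGD/R 3 h. Both OGD/R groups lay above control and overlapped each other. The GENCODE miRNA gene Gm25911 covers part of the locus chr1:167340277-167340517 (minus strand), but not its sites chr1:167340349 and chr1:167340353. At this locus 71 sites were listed. They numbered 18, 25 and 22 in control, 25, 38 and 31 after OGD/R 1.5 h and 44, 43 and 42 in OGD/R 3 h. Numbers in OGD/R 3 h were the highest, and those of control and OGD/R 1.5 h met at 25. Its scores were 17.5, 16 and 12.5, then 12, 63 and 46, then 40.5, 74 and 40, so OGD/R 3 h lay above control.

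The locus chr1:56782067-56782370 (minus strand) held 63 sites in sequence like the 18S part of the rRNA unit. It had 14, 18 and 18 sites in control, 22, 27 and 23 after OGD/R 1.5 h and 45, 39 and 36 in OGD/R 3 h, without overlap. Its median scores were 56.5, 78 and 27.5 in control, 33, 34 and 60 after OGD/R 1.5 h and 263, 181 and 204.5 in OGD/R 3 h, with OGD/R 3 h above the others. The locus chr15:86194758-86195097 (plus strand) held 48 sites, 14, 5 and 10 in control, 8, 7 and 5 after OGD/R 1.5 h and 7, 13 and 12 in OGD/R 3 h. Scores there were 49, 20 and 39.5, then 272.5, 287 and 79, then 55, 174 and 90.5, and both OGD/R groups lay above control.

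Of the off-gene sites, 1558 (59.3%) were listed in 1 group only, against 80.8% of mRNA sites and 64.0% of the other sites within genes. Control listed 1447 off-gene sites in any of its libraries, OGD/R 1.5 h 1299 and OGD/R 3 h 1352. In all 3 groups 402 (15.3% of 2627) were listed, against 3.68% of mRNA sites and 15.3% of the other sites within genes. Control and OGD/R 1.5 h shared 673, which were 46.5% of the control sites and 51.8% of the OGD/R 1.5 h sites. Control and OGD/R 3 h shared 579, 40.0% and 42.8%. Of antisense sites 52.6% were listed in 1 library only, and of intergenic sites 38.1%.

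Of the 366 loci, 195 were listed in 1 group alone, 91 of them in control with 165 sites, 50 in OGD/R 1.5 h with 92 sites and 54 in OGD/R 3 h with 166 sites. In control the largest were chr13:9834480-9834516 with 0, 7 and 1 sites per library and chr1:184666422-184666439 with 3, 4 and 2. The latter held 5 different sites, and an antisense locus within Pfn1 also held 5, listed in control alone. In OGD/R 1.5 h they were chr10:128132516-128132544, opposite an exon of Rbms2, with 6, 8 and 8 sites and chr1:167899275-167899291 with 0, 6 and 3. The latter held 7 different sites, and an antisense locus within Elp5 also held 7, listed in OGD/R 1.5 h alone. In OGD/R 3 h they were chr1:56782277-56782344 (plus strand) with 14, 19 and 17 sites, all libraries having a median score of 1000, and chr10:96077535-96077645 with 0, 13 and 5. The former lay opposite the 18S-like locus at chr1:56782067-56782370, and the latter in sequence like mt-Rnr2.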

How the data were processed

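The series measured m5C in RNA by bisulfite sequencing in 9 libraries of mouse cells labelled as cortical neurons, 3 untreated and 3 for each length of OGD (1.5 h and 3 h) followed by reoxygenation. Per the labels, base calls came from CASAVA 1.8, and reads were trimmed with cutadapt 1.9.3 and aligned to mm10, with STAR named as the aligner. By the study's methods the authors aligned and called sites with meRanGh and meRanCall. The score deposited for each site is a whole number from 0 to 1000, capped at 1000, that takes in coverage and methylation level together and is not normalised for depth. How the mock libraries entered the calls is not stated. Depth and coverage are unknown, so no interval was computed for any site.

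Sites were placed by strand against mm10 RefSeq gene spans of every biotype, and sites within a span on the other strand alone were called antisense. mRNA sites lie in exons of protein-coding RefSeq genes on their strand. Isolated sites have no other site of their library within 10 nt on the strand. Loci chain sites of the same class and strand at most 100 nt apart. Cytosine contexts were counted within 50 nt. Windows of 101 nt around sites were searched with BLAST (dust filter off, E-value limit 1e-8, at least 80% identity over 50 nt) in the genome, in GENCODE transcripts on the same strand, and in both strands of the rRNA unit copy and the mitochondrial genome. Loci with 50 nt added at both ends were compared with each other in the same way. Tools were Python 3.11.15, numpy 2.4.6, pandas 2.3.3, pysam 0.24.0, networkx 3.6.1, matplotlib 3.10.9, samtools 1.23.1 and BLAST+ 2.17.0. The computation of the group measures was tested on simulated data.

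No test was made. With earlier results of these data known, the libraries of a group were counted as 1 sample, and whether off-gene sites vary between libraries by more than sampling noise was not tested. Means ± SD over 3 libraries describe the spread between libraries only. Spreads of a difference combine the SDs of both groups. Changes at a site are differences in mean log2(score + 1) among sites listed in all 6 libraries of a comparison. Loci, sites and genes were named by a rule set in advance, but with earlier results of these data known. It took the 5 loci of each class with most sites. It took the 3 sites of each class with the highest median score among those in all 9 libraries. Per class and comparison it took the 2 largest rises and 2 largest falls where scores do not overlap. The 5 genes with most antisense sites (4 are described) were also named. So were, per group, the 2 loci with most sites among those absent from the other groups. Fewer antisense sites met the rule. The division into antisense and intergenic sites and the marker lists were chosen with earlier results of these data known. Alternatives tried were sites in at least 2 or in all 3 libraries of a group, scores of at least 10, GENCODE spans, spans extended by 1000 nt, leaving out the mitochondrial chromosome, masked bases or each library, 50 nt for isolated sites and mean log2(score + 1) for the median. Chosen after seeing the data were leaving out the rRNA unit copy, chromosomes 1, 10 and 11, and scores of 1000, and leaving out each library for the counts of scores that do not overlap and for the named sites. The mock libraries have no site lists and were left out.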

Additional observations from a re-analysis of the deposited data

Results flagged for a closer look

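Both named sites in sequence like the mitochondrial genome on chromosome 1 moved in opposite directions in the OGD/R groups. At chr1:24613132 every OGD/R 1.5 h score lay below control and every OGD/R 3 h score above it, and the log2 changes from control differed by 6.31. At the adjacent chr1:24613133 the same held, with a difference of 5.74. The difference was not tested, and its cause was not tested. The sequence has 2 further copies in the genome, and all 3 OGD/R 3 h scores are at the cap of 1000.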

How the results depend on the processing

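Of 275 values of 19 results under alternatives, 233 moved by less than the spread between libraries, or for counts by less than 1.5 times, and 42 moved further. In all, 18 values changed sign, 2 of them of a difference larger than its spread and 16 of a smaller one (numbers and the CG share against mRNA sites among them), so the sign of those smaller differences is not to be read. Of the 42 values, 6 came from leaving out a library, and those 6 are counts of sites whose scores do not overlap. The 66 values of named sites with a library left out, also chosen after seeing the data, moved by less than their spread. No paired analysis was possible because the labels pair no libraries, and no test was made. Causes were not tested.

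The rise of the median score in OGD/R 3 h (2.65, log2) kept its direction under every alternative, from 1.52 to 3.25. It was 2.18 for scores of at least 10, 2.05 with GENCODE spans, 1.60 with mean log2(score + 1), 1.83 for scores under 1000, 1.52 without the rRNA unit copy and 3.25 without chromosomes 1, 10 and 11. The rise in OGD/R 1.5 h (0.46) did not: it was 0.00 for sites in all 3 libraries of a group, 0.00 with GENCODE spans, -0.031 without the unit and 1.24 without chromosomes 1, 10 and 11. The excess of off-gene over mRNA scores (2.31) was 1.24 without the unit.

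The OGD/R 3 h differences in the share of all sites (-2.59), in CHH (4.22) and in isolated sites (-5.74) also kept their direction under every alternative tried, from -3.03 to -1.14, from 0.922 to 8.88 and from -14.0 to -0.745.

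For sites in all 3 libraries of a group, the CHH difference was -9.77 points in OGD/R 1.5 h, the isolated difference 4.07 in OGD/R 1.5 h and -14.0 in OGD/R 3 h, and the log2 ratio of numbers 0.18 in OGD/R 3 h. In at least 2 libraries, the isolated difference in OGD/R 1.5 h was 1.30. For scores of at least 10, isolated differences were -2.22 and -9.87 and that between off-gene and mRNA sites -44.1, and the log2 ratio of numbers in OGD/R 3 h was 0.26. With GENCODE spans, CHH differences were 1.50 and 8.88. On unmasked bases the isolated difference in OGD/R 1.5 h was -1.67. With 50 nt in place of 10 nt, off-gene and mRNA sites differed by -21.3 points in isolated share.

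The other alternatives were chosen after seeing the data. In OGD/R 3 h without the unit, the log2 ratio of numbers was 0.12, the share of all sites differed by -1.14 points, CHH by 7.33 and isolated sites by -9.55. Without chromosomes 1, 10 and 11, the antisense share in OGD/R 3 h differed by 2.42 points, against -4.04 with them, CHH by 0.922 and isolated sites by -0.745. Counts of sites whose scores do not overlap were then 5 higher and 4 lower in OGD/R 1.5 h and 26 higher and 1 lower in OGD/R 3 h, and without the unit 20 were higher in OGD/R 3 h, all from fewer sites. With a library left out, they ran from 19 to 29 higher and 20 to 25 lower in OGD/R 1.5 h, and from 55 to 64 higher and 6 to 10 lower in OGD/R 3 h. Unknown depth limits every comparison of scores and numbers.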
